A study of Mus musculus with 6 samples.

Results

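The genes of MHC class I antigen presentation described here are B2m, H2-K1, H2-D1, H2-T23, Tap1, Tap2, Tapbp and Nlrc5, chosen by name, which are 8 of the 24411 gene symbols counted. They were measured by bulk RNA sequencing of tissue from mice at postnatal day 18. Of the 6 libraries, 3 came from mice in which a large Atoh7 enhancer is knocked out (enhancer KO) and 3 from wild-type mice (WT). Atoh7 is a proneural factor of the bHLH family that retinal ganglion cells need for their formation, which is the process the series studies. The labels give no strain, sex or zygosity for either group and do not say whether tissue was pooled, and they name no Cre driver or further allele. They call the replicates independent without naming an animal or litter, so the p-values below measure the spread between these samples, which may be technical. Protocol and design text name the cerebellum, whereas the tissue field reads retina. Summed markers of Purkinje cells, the output neurons of the cerebellar cortex, reached 5818 to 6286 CPM (counts scaled to a library total of 1e6) in enhancer KO and 4128 to 5046 CPM in WT, against 1.01 to 1.29 and 1.37 to 2.04 CPM for photoreceptor markers.

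MHC class I molecules carry short peptides from the inside of a cell to its surface, where T cells and natural killer cells read them. Proteasomes cut proteins into peptides, the Tap1-Tap2 transporter pumps these into the endoplasmic reticulum, and tapasin with its partner chaperones loads them onto a heavy chain bound to β2-microglobulin. In the brain the pathway is kept low in most cells and is known to be raised by interferons, and class I proteins of neurons have been studied for roles in synapse remodelling. Microglia and blood vessel cells are known to express class I genes in unstimulated brain.

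Promoters of several of these genes share elements that the enhanceosome recruiting Nlrc5 binds (X and Y boxes), a box bound by interferon regulatory factors and a site for NF-kB. The 250 bases before the RefSeq start (build GRCm38.p6) were searched on both strands for the X2 core TGACG, the Y box CCAAT, the interferon box TTTCNNTT, its stricter form, in which TC follows the box and which overlaps it, and a palindromic kB site, whose letters are the capitals that open the first short stretches printed below. RefSeq windows were matched for 6 of the 8 genes, and Tap2 and Nlrc5 had no entry. The windows of B2m (chr2:122147437-122147686, plus strand) and H2-K1 (chr17:34000348-34000597, minus strand) are shown whole because they hold most of these elements, with matched letters in capitals.

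B2m: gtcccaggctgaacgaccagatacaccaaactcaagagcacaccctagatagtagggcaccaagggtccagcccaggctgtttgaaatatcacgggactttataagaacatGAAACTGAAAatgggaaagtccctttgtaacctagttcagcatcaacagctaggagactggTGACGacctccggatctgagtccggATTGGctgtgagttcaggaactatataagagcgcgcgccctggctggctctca

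H2-K1: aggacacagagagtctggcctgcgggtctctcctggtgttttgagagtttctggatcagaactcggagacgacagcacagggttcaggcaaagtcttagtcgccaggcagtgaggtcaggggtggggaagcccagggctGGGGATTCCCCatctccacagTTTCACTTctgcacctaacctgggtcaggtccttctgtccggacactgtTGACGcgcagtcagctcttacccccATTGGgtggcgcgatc

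In B2m the X2 core began 78 bases before the start, the Y box 53 and the strict interferon box 139. In H2-K1 the X2 core began 41 bases before the start, the Y box 16, the interferon box 90 and the kB site 111. H2-D1 held the same elements in the same order, and short stretches of both genes are set side by side to show this, first from the kB site to the interferon box (chr17:34000430-34000458 in H2-K1 and chr17:35262923-35262951 in H2-D1) and then from the X2 core to the Y box (chr17:34000359-34000388 and chr17:35262993-35263022). Capitals mark the matched letters, and all 4 stretches are read along the gene's own strand.

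H2-K1, kB site to interferon box: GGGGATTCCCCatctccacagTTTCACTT

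H2-D1, kB site to interferon box: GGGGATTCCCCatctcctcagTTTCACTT

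H2-K1, X2 core to Y box: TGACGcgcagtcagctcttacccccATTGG

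H2-D1, X2 core to Y box: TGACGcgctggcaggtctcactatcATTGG

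The first pair matched at 28 of 29 bases and the second at 23 of 30. A second Y box of H2-D1 began 53 bases before its start. The whole H2-D1 window lies in an exon of a GENCODE transcript that begins further upstream, and 154 bases of the H2-T23 window and 146 of the Tapbp window are likewise exonic in GENCODE. H2-T23 had no X2 core match, but held a Y box at 52 bases, interferon boxes at 124 and 81 bases and the strict box at 124 bases (chr17:36032806-36032835, minus strand), shown here in capitals because it is the 1 member past the threshold below. All of these H2-T23 matches lie among its 154 exonic bases, which are those nearest the RefSeq start.

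H2-T23, strict interferon box: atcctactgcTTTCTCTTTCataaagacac

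Tap1 held an X2 core at 86 bases and a Y box at 222, and Tapbp held Y boxes at 248 and 165 bases. Over 32851 RefSeq promoters of the same length, the X2 core was found in 17.8%, the Y box in 33.8%, the interferon box in 21.3%, the strict interferon box in 2.98% and the kB site in 0.0304%, which is 10 promoters. Of 23 promoters from a list of interferon response genes, 12 held the strict box. A match is a string of letters and does not show that a factor binds, and a window without one says only that these letters are not in it.

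**Figure D1:**
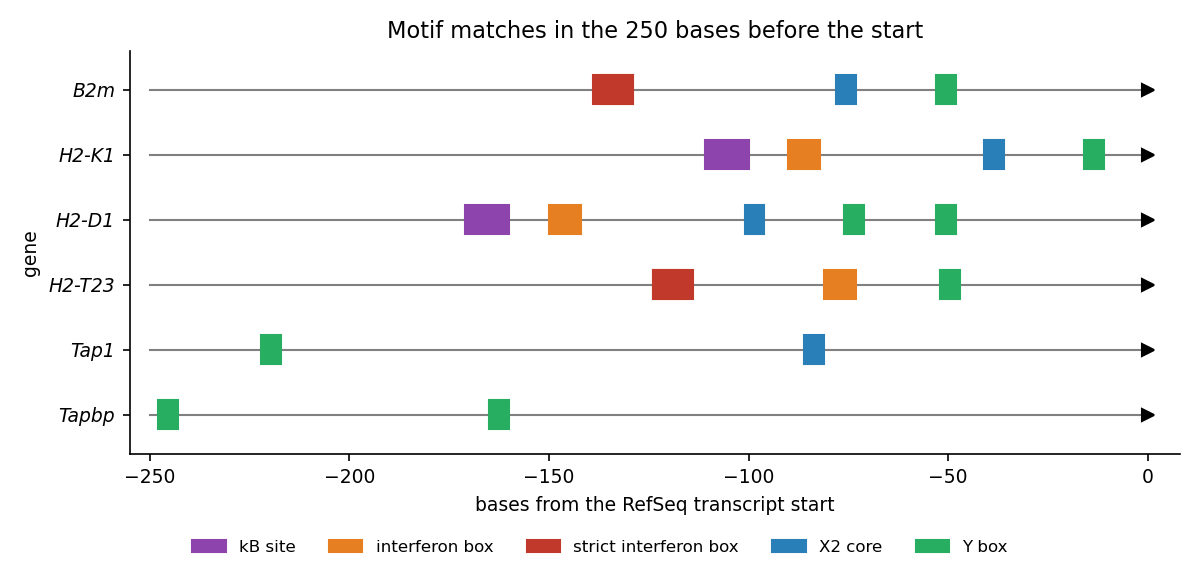
Positions of matched letters in the promoters of 6 class I presentation genes, with bases before the RefSeq start on the horizontal axis and 1 row per gene, and colours for the 5 motifs. H2-K1 and H2-D1 show the kB site, interferon box, X2 core and Y box in the same order, with those of H2-D1 further from its start.

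Reads in genes numbered 36849747 to 40858310 per library in enhancer KO and 22812075 to 33076111 in WT, and CPM are relative to these totals after TMM scaling. Atoh7, the gene whose enhancer was targeted, had 0.744, 0.858 and 0.695 CPM in the enhancer KO libraries, against 1.94, 2.05 and 2.13 CPM in WT, a log2 fold change of -1.42 ± 0.21 (SE, n = 3 each; edgeR adjusted p = 0.000353). These values rest on 28 to 33 reads per library in enhancer KO and 42 to 72 in WT. The groups also differed in the share of reads outside annotated exons, which was 17.4% ± 0.734 in enhancer KO and 32.4% ± 1.56 in WT (SD, n = 3 each), without overlap (exact two-sided permutation p = 0.1, the smallest that 3 against 3 allows). Reads aligned to several places, which are not counted in any gene, made up 10.8% ± 0.550 in enhancer KO and 7.60% ± 0.563 in WT (SD, n = 3 each), also without overlap (exact two-sided permutation p = 0.1). WT replicate 1 alone had high Xist (1054 CPM) and no reads of Ddx3y, and WT replicate 2 had 20.4% unmapped reads. Whether these differences between libraries enter the results below was not tested beyond the alternatives named. In bulk tissue, fewer cells of a type and less RNA per cell cannot be told apart.

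Of the 8 class I presentation genes, 1 rose in enhancer KO, H2-T23, and 0 fell, by edgeR's quasi-likelihood test at a Benjamini-Hochberg threshold of 0.05 over the 15846 genes tested. Over all genes tested, 31.3% passed in either direction, 13.4% higher and 17.9% lower, so the members' share of 12.5% was no larger than the background. At an unadjusted p under 0.05, 3 members were higher and 0 lower, against 41.3% of all genes in either direction, and DESeq2 and limma-voom each called 0 members in either direction. The median log2 fold change of the 8 genes was 0.13, against 0.00 for all genes, with 6 positive and 2 negative values. For 6 of the 8 genes the 95% interval of the difference lay within 1.5-fold either way, the exceptions being H2-T23 and Tap1 on the higher side. Nlrc5 was only just among the 6, with an interval up to 1.4997-fold that rests on 20 to 46 reads per library.

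**Figure D2:**
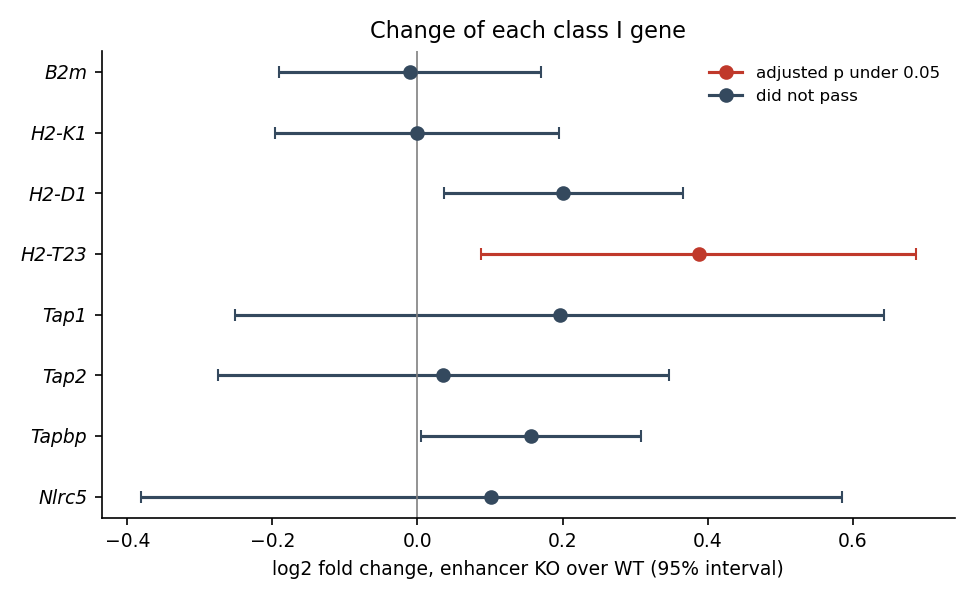
Log2 fold change of each class I presentation gene, enhancer KO over WT, with its 95% interval as a horizontal bar, from edgeR's fit over all genes with 3 libraries per group. The interval of H2-T23, in red, is the 1 that passed the adjusted threshold, and B2m and H2-K1 sit at 0.

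Levels differed widely between the genes. Per kilobase of exon, which allows genes to be compared, B2m was highest at 72.7 ± 5.63 CPM per kilobase in enhancer KO and 73.4 ± 7.69 in WT (SD, n = 3 each, here and in the rest of this paragraph). Tapbp followed with 14.5 ± 0.811 in enhancer KO and 13.0 ± 1.202 in WT. H2-D1 had 10.7 ± 0.489 in enhancer KO and 9.32 ± 0.793 in WT, and H2-K1 had 10.05 ± 0.812 in enhancer KO and 10.08 ± 1.0002 in WT. With these lengths H2-D1 and H2-K1 did not differ from each other beyond their spread. H2-T23 had 5.30 ± 0.930 in enhancer KO and 4.03 ± 0.304 in WT. The transporter genes lay lower, Tap2 at 1.87 ± 0.268 in enhancer KO and 1.80 ± 0.272 in WT, and Tap1 at 1.35 ± 0.338 in enhancer KO and 1.16 ± 0.215 in WT, with overlapping libraries. Nlrc5 was lowest at 0.134 ± 0.0115 in enhancer KO and 0.124 ± 0.00729 in WT. Lengths here cover exons of coding transcripts in the basic GENCODE set. With the exons of every annotated transcript, a length added after the data were seen, H2-D1 averaged 8.17 CPM per kilobase over the 6 libraries and H2-K1 5.67, and the order of the other genes was the same. At that length the lowest library of H2-D1 (6.89) lay above the highest of H2-K1 (6.10).

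B2m (chr2:122147686-122153083, plus strand, build mm10 here and below) encodes β2-microglobulin, the light chain that every class I heavy chain and several class I-like proteins need to reach the surface. Its levels were 64.2, 66.2 and 57.0 CPM in enhancer KO, against 57.7, 70.5 and 61.2 CPM in WT. The groups overlapped, with the highest and the second lowest library both from WT. The log2 fold change was -0.01 ± 0.08 (SE, n = 3 each; edgeR adjusted p = 0.939), and its 95% interval ran from 0.876-fold to 1.13-fold.

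H2-K1 (chr17:33996017-34000347, minus strand) encodes a classical heavy chain, the part of the complex that holds the peptide. It had 17.78, 16.96 and 15.15 CPM in enhancer KO, against 14.80, 17.92 and 17.31 CPM in WT. The groups covered almost the same range, and the interval of the difference ran from 0.873-fold to 1.14-fold (edgeR adjusted p = 0.996). H2-D1 (chr17:35262730-35267499, plus strand) encodes the other classical heavy chain annotated with reads here. It had 23.71, 21.95 and 21.92 CPM in enhancer KO, against 17.76, 20.02 and 21.01 CPM in WT. H2-D1 was the 1 member of 8 whose groups did not overlap, a pattern shown by 44.8% of all genes tested. Its log2 fold change was 0.20 ± 0.08 (SE, n = 3 each), with an interval from 1.03-fold to 1.29-fold, and missed the threshold (edgeR adjusted p = 0.0615). Without WT replicate 3 it passed (log2 fold change 0.26, edgeR adjusted p = 0.0465), and without WT replicate 1, its lowest library, the log2 fold change was 0.13 (edgeR adjusted p = 0.197).

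H2-T23 (chr17:36029773-36032855, minus strand) encodes the heavy chain of Qa-1, a nonclassical molecule that presents leader peptides of other class I chains to inhibitory receptors of natural killer cells. It had 8.08, 8.998 and 6.31 CPM in enhancer KO, against 5.64, 5.71 and 6.45 CPM in WT. Replicates 1 and 2 of enhancer KO were above every WT library, and enhancer KO replicate 3 lay inside the WT range. H2-T23 rose by a log2 fold change of 0.39 ± 0.14 (SE, n = 3 each; edgeR adjusted p = 0.0498), or 30.8%, with an interval from 1.06-fold to 1.61-fold. The call was close to the threshold and was lost in 13 of 20 alternatives, with DESeq2 (adjusted p = 0.0526), limma-voom (adjusted p = 0.0814) and leaving out any 1 of 5 libraries among them. Without enhancer KO replicate 3 it was 0.52 (edgeR adjusted p = 0.00543), and without enhancer KO replicate 2 it was 0.27 (edgeR adjusted p = 0.205).

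**Figure D3:**
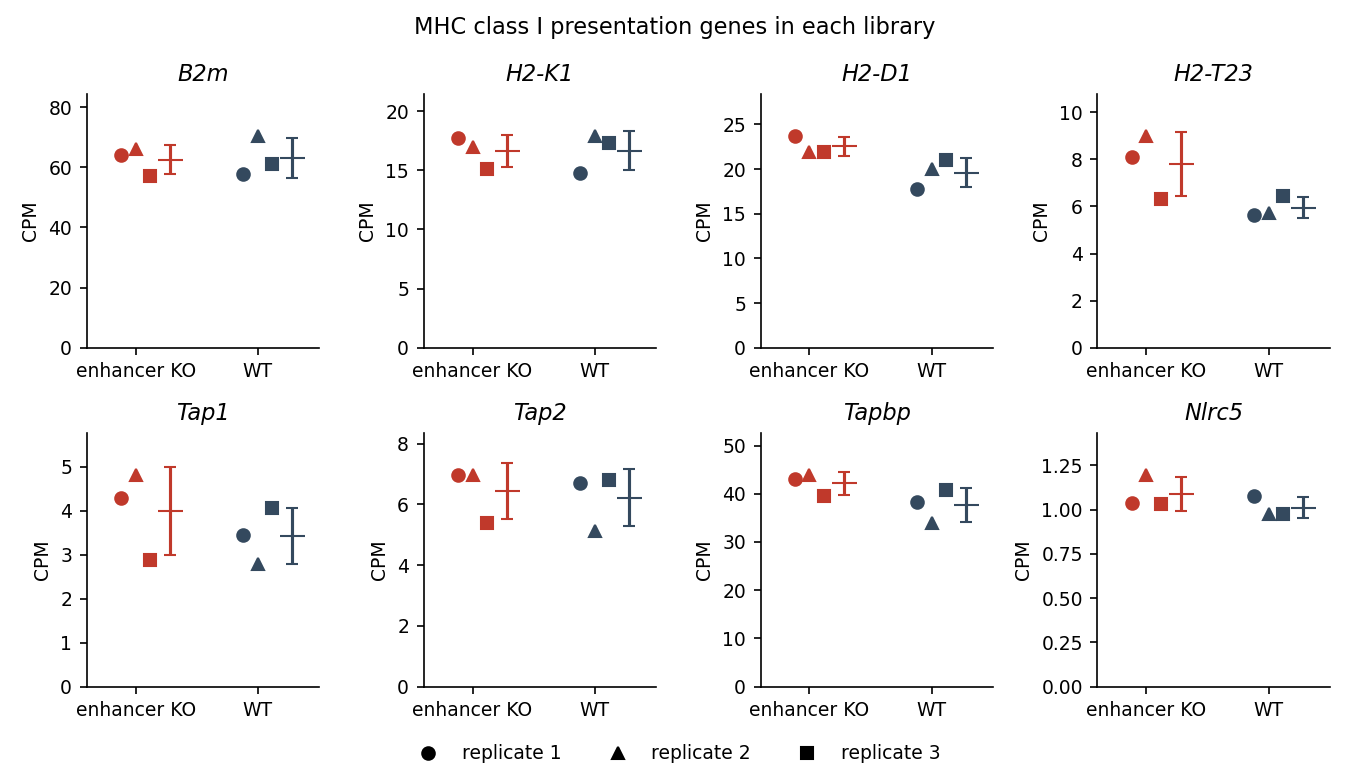
Level in CPM of each class I presentation gene in every library, 1 panel per gene with its own axis from 0, enhancer KO at the left and WT at the right, with points for libraries and a bar for the mean with its SD. The 3 enhancer KO points of H2-D1 stand above its 3 WT points, and the groups overlap in the other 7 panels.

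Heavy chain genes resemble each other, which limits reads that align to 1 place. The coding sequences of H2-K1 and H2-D1 were identical at 985 of 1077 aligned positions (91.5%), those of H2-K1 and H2-T23 at 83.4% and those of H2-D1 and H2-T23 at 81.1%. The longest run that H2-K1 and H2-D1 share in their coding sequences is 91 bases long (chr17:33997343-33997433 and chr17:35265911-35266001), and it is shown because a read inside it fits both genes.

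H2-K1 and H2-D1, shared run: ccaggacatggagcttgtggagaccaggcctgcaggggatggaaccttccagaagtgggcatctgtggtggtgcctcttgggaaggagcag

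Of all 100-base windows in the transcript, 100% occurred in no other gene for H2-K1, 95.4% for H2-D1 and 92.7% for H2-T23. At 50 bases the shares were 91.2%, 85.7% and 71.2%, and the read length is not given in the sources used here. For H2-T23 the closest other sequences were those of H2-T-ps at 50 bases and Gm7030 at 100 bases, so its level is the least certain of these heavy chains. In the class I region 31 H2 symbols were counted, and 17 of them, H2-L, H2-Q6, H2-Q7, H2-Q8, H2-Q9, H2-T22, H2-T9 and H2-T3 among them, had 0 reads in every library on the strand used. At 100 bases the share of windows found in no other gene was 100% for H2-T3, 89.2% for H2-Q6, 85.8% for H2-T22 and 83.6% for H2-Q7. At 50 bases these shares were 98.8%, 68%, 55.3% and 65.1%. Why these genes had 0 reads was not tested. The labels give no strain, and heavy chains differ between mouse strains, which was not tested.

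Tap1 (chr17:34187553-34197225, plus strand) and Tap2 (chr17:34203527-34216321, plus strand) encode the chains of the peptide transporter. Tap1 had 4.28, 4.81 and 2.88 CPM in enhancer KO, against 3.45, 2.78 and 4.05 CPM in WT, so enhancer KO held both the highest library and, in replicate 3, the second lowest. Its log2 fold change was 0.20 ± 0.20 (SE, n = 3 each; edgeR adjusted p = 0.508), with a 95% interval from -0.25 to 0.64. Tap2 had 6.96, 6.97 and 5.37 CPM in enhancer KO, against 6.69, 5.13 and 6.81 CPM in WT. Its groups overlapped as well, and the log2 fold change was 0.04 ± 0.14 (SE, n = 3 each; edgeR adjusted p = 0.878).

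Tapbp (chr17:33915899-33929292, plus strand) encodes tapasin, which bridges the transporter and the empty heavy chain. It had 43.1, 43.9 and 39.5 CPM in enhancer KO, against 38.2, 33.9 and 40.8 CPM in WT. Enhancer KO replicate 3 lay below the highest WT library, and the other enhancer KO libraries lay above all of WT. The log2 fold change was 0.16 ± 0.07 (SE, n = 3 each; edgeR adjusted p = 0.111). Of the stranded reads at Tapbp 9.52% came from the opposite strand, at 4.11 CPM in enhancer KO and 4.43 CPM in WT, and these were not counted.

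Nlrc5 (chr8:94434356-94527272, plus strand) encodes the transactivator of class I promoters. It had 1.037, 1.196 and 1.031 CPM in enhancer KO, against 1.079, 0.9768 and 0.9767 CPM in WT. The groups overlapped, and the interval of the log2 fold change was wide, from -0.38 to 0.58 around 0.10 ± 0.22 (SE, n = 3 each; edgeR adjusted p = 0.768).

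The members tended to vary together among the enhancer KO libraries. Replicate 3 was the lowest enhancer KO library for 8 of 8 genes, against 36.2% of all genes tested, and replicate 2 was the highest for 6 of 8. The margin to the next enhancer KO library was narrow at H2-D1 (21.92 against 21.95 CPM) and Nlrc5 (1.031 against 1.037 CPM). Tap2 was likewise only just highest in replicate 2 (6.97 against 6.96 CPM). Among WT libraries replicate 1 was lowest for 4 genes, replicate 2 for 3 and replicate 3 for 1, and replicate 3 was highest for 5. Among enhancer KO libraries, summed microglial markers were also lowest in replicate 3, at 394 against 446 and 476 CPM in replicates 1 and 2. Choroid plexus markers summed to 791 CPM there, against 1821 and 1999 CPM. Endothelial markers summed to 299 CPM there, against 353 and 346 CPM, and mural and meningeal markers to 409 CPM, against 598 and 525 CPM. Border macrophage, lymphocyte, blood, astroglial and oligodendrocyte markers were lowest in its group in this replicate too. Granule neuron, Purkinje and photoreceptor markers were highest in it. The part of these cell types in the members' levels was not tested. The 5 genes whose profile over the 6 libraries was nearest to the members' mean profile were Nr2f2, Tgfb3, Smpd2, Tdrp and Pdlim5, with a root mean square difference of 0.0318 to 0.0383 on the log2 CPM scale. They are the smallest of all genes tested outside the 8, so lying below the all-gene median of 0.174 was fixed by the choice. The members' own differences from that mean profile were larger, from 0.0634 for Tapbp to 0.176 for Tap1. Nr2f2 is a nuclear receptor and Tgfb3 a growth factor, and none of the 5 passed the threshold (edgeR adjusted p from 0.0787 to 0.406).

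**Figure D4:**
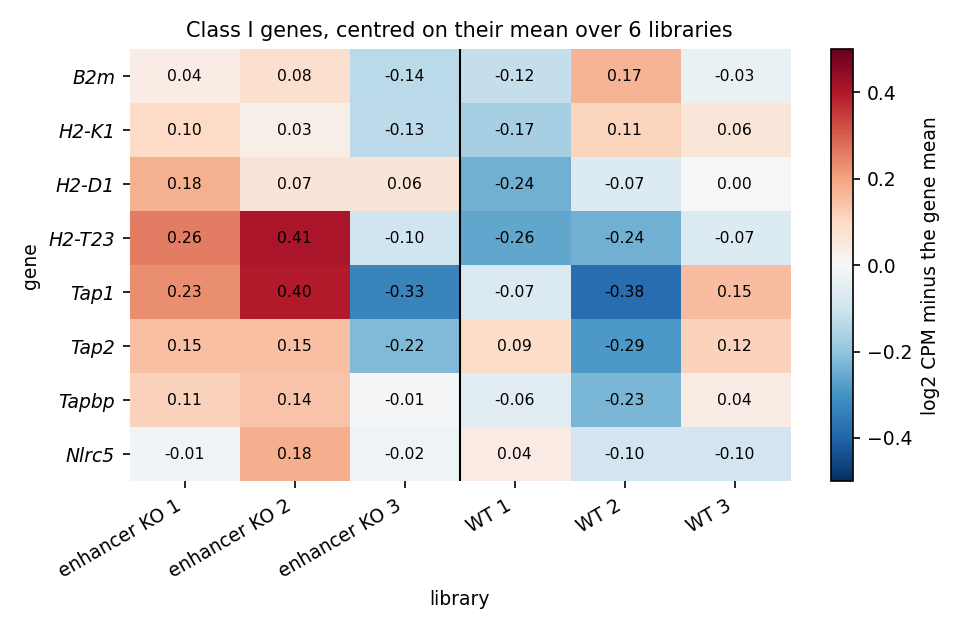
Log2 CPM of each class I presentation gene in every library relative to the gene's own mean over the 6 libraries, with genes in rows, enhancer KO libraries in the left columns, WT libraries in the right columns and the value printed in each cell. Replicate 3 has the lowest value among the enhancer KO columns in all 8 rows, by a narrow margin for H2-D1 and Nlrc5.

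The rest of the pathway was read from lists of other heavy chains, loading and trimming factors, proteasome subunits, promoter regulators, interferon receptors and kinases, class II genes and receptors that bind class I. Together they held 113 genes, of which 82 were tested, 12 rose and 11 fell, or 28.05% against the 31.3% of all genes, with a median log2 fold change of 0.04. Of 25 other class I and class I-like heavy chains, 13 were tested, 1 rose and 1 fell (median 0.09), or 15.4% of those tested. H2-M5, a nonclassical heavy chain gene, had 0.425, 0.312 and 0.192 CPM in enhancer KO, against 0.956, 0.586 and 1.07 CPM in WT. Its groups did not overlap, it fell by 1.55 on the log2 scale (edgeR adjusted p = 0.00648), and between 8 and 36 reads per library lie behind these values. Procr, the endothelial protein C receptor with a class I-like fold, had 1.67 ± 0.179 CPM in enhancer KO and 1.09 ± 0.148 CPM in WT (SD, n = 3 each; edgeR adjusted p = 0.0487), and this call was lost whichever single library was left out. Mr1, Cd1d1, Hfe and Fcgrt, which encode class I-like proteins, gave edgeR adjusted p between 0.298 and 0.968.

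Among 16 peptide loading and trimming genes 3 rose and 3 fell (median -0.01), or 37.5% against 31.3% of all genes in either direction. Pdia3, the disulfide isomerase of the loading complex, had 195 ± 0.502 CPM in enhancer KO and 176 ± 5.15 CPM in WT (SD, n = 3 each; log2 fold change 0.15, edgeR adjusted p = 0.0116, and 0.0513 without WT replicate 3). Ergic1, a protein of the compartment between endoplasmic reticulum and Golgi, rose by 0.15 and Canx, the chaperone calnexin, by 0.13 on the log2 scale. Uggt1, which senses misfolded glycoproteins, fell by 0.22, Tpp2, a cytosolic peptidase, by 0.21 and Ganab, a glucosidase subunit, by 0.13. Scaling by library size alone left 2 that rose and 0 that fell, and removing the trend over gene structure left 5 and 0. Under these alternatives, in this order, Uggt1 was at -0.15 and -0.12 (edgeR adjusted p = 0.142 and 0.0501) and Tpp2 at -0.14 and -0.03 (edgeR adjusted p = 0.160 and 0.574). Without WT replicate 3 the number that rose was 1. Calr and Erap1, a chaperone of the loading complex and the peptide-trimming protease of the endoplasmic reticulum, had log2 fold changes of -0.03 and -0.02 that missed the threshold (edgeR adjusted p = 0.651 and 0.876).

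Of 8 immunoproteasome and proteasome activator genes 2 rose and 1 fell (median 0.11), or 37.5% against 31.3% of all genes in either direction. Psmb8, a catalytic subunit of the interferon-inducible proteasome, had 2.21, 2.39 and 1.80 CPM in enhancer KO, against 1.23, 1.27 and 1.36 CPM in WT. Every enhancer KO library was above every WT library, and the log2 fold change was 0.72 ± 0.20 (SE, n = 3 each; edgeR adjusted p = 0.0149, and 0.0638 without enhancer KO replicate 2). Psme1, a subunit of the PA28 activator, had 25.1 ± 0.905 CPM in enhancer KO and 21.5 ± 0.609 CPM in WT (SD, n = 3 each; log2 fold change 0.22, edgeR adjusted p = 0.0158, and 0.0740 without enhancer KO replicate 2). The other inducible catalytic subunits did not pass, Psmb9 at a log2 fold change of 0.04 and Psmb10 at 0.16 (edgeR adjusted p = 0.944 and 0.134). Psme4, the PA200 activator, had 77.4 ± 1.98 CPM in enhancer KO and 103 ± 6.03 CPM in WT (SD, n = 3 each), and fell by 0.41 on the log2 scale (edgeR adjusted p = 9.52e-05). The catalytic subunits that the inducible ones replace rose in 3 of 3 cases, against 13.4% of all genes. Psmb5 rose by 0.31, Psmb6 by 0.25 and Psmb7 by 0.22 on the log2 scale. Psmb7 did not pass without WT replicate 3 (edgeR adjusted p = 0.0530).

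Of 20 regulators of class I promoters 1 rose and 4 fell (median -0.08), or 25% against 31.3% of all genes in either direction. Stat2, which carries the type I interferon signal, had 26.3, 27.4 and 24.8 CPM in enhancer KO, against 42.9, 45.2 and 47.5 CPM in WT. The groups stood far apart, and it fell by 0.79 on the log2 scale (edgeR adjusted p = 3.50e-06). Irf3, an interferon regulatory factor, fell by 0.56 and Nfyc, a subunit of the factor at the Y box, by 0.32. Rfx5, a subunit of the factor at the X box, had 25.9 ± 0.530 CPM in enhancer KO and 33.2 ± 1.44 CPM in WT (SD, n = 3 each; log2 fold change -0.36, edgeR adjusted p = 0.000668). Irf7, an interferon-inducible factor, rose, with 3.22, 3.30 and 2.49 CPM in enhancer KO against 1.79, 1.56 and 1.57 CPM in WT (log2 fold change 0.87, edgeR adjusted p = 0.00373). Irf1, another interferon regulatory factor, had a log2 fold change of -0.15 and missed the threshold (edgeR adjusted p = 0.569). Beside these pathway genes, 8 of 8 granule neuron markers fell (median -0.66), a number that was 3 without enhancer KO replicate 1 or 2 or without WT replicate 2, and 4 without WT replicate 3. Of 6 nuclear and intron-rich RNAs 6 fell (median -1.42), and of 7 Purkinje markers 5 rose (median 0.41). Over all genes tested, 17.9% fell and 13.4% rose. The part of these markers and RNAs in the pathway values was not tested.

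Of 11 interferon receptors and kinases 2 rose and 2 fell (median -0.05), or 36.4% against 31.3% of all genes in either direction. The kinase Tyk2 fell by 0.62 and the phosphatase Ptpn2 by 0.56, while the receptor chain Ifngr2 rose by 0.24 and Usp18, an inhibitor of interferon signalling, by 0.98 on the log2 scale. Of 30 interferon response genes, a list that shares no member with the 8, 11 rose and 2 fell (median 0.35). This is 43.3%, against 31.3% of all genes in either direction, 13.4% higher and 17.9% lower. The number that rose was 6 and 5 without enhancer KO replicates 1 and 2, 16 without enhancer KO replicate 3 and 7 without each of the WT replicates. The summed level of that list was 175, 184 and 135 CPM in enhancer KO, against 128, 124 and 132 CPM in WT, with enhancer KO replicate 3 near the WT libraries.

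None of 8 class II presentation genes passed by edgeR's test (0 at an unadjusted p under 0.05, and 0 by DESeq2 and limma-voom), with a median log2 fold change of 0.18. Cd74, the invariant chain, had 11.01 ± 2.53 CPM in enhancer KO and 10.21 ± 0.615 CPM in WT, and H2-Ab1, a class II chain, had 4.69 ± 0.656 CPM in enhancer KO and 4.04 ± 0.328 CPM in WT (SD, n = 3 each). Of 19 genes listed as receptors that bind class I, 3 had enough reads to be tested and 0 passed by edgeR's test (0 at an unadjusted p under 0.05, and 0 by DESeq2 and limma-voom). Pirb, a class I receptor studied in neurons and glia, had 1.76 ± 0.0935 CPM in enhancer KO and 2.02 ± 0.393 CPM in WT (SD, n = 3 each). Lilrb4a, an inhibitory receptor of myeloid cells whose binding of class I was not checked, had 1.22 ± 0.328 CPM in enhancer KO and 1.48 ± 0.169 CPM in WT (SD, n = 3 each).

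**Figure D5:**
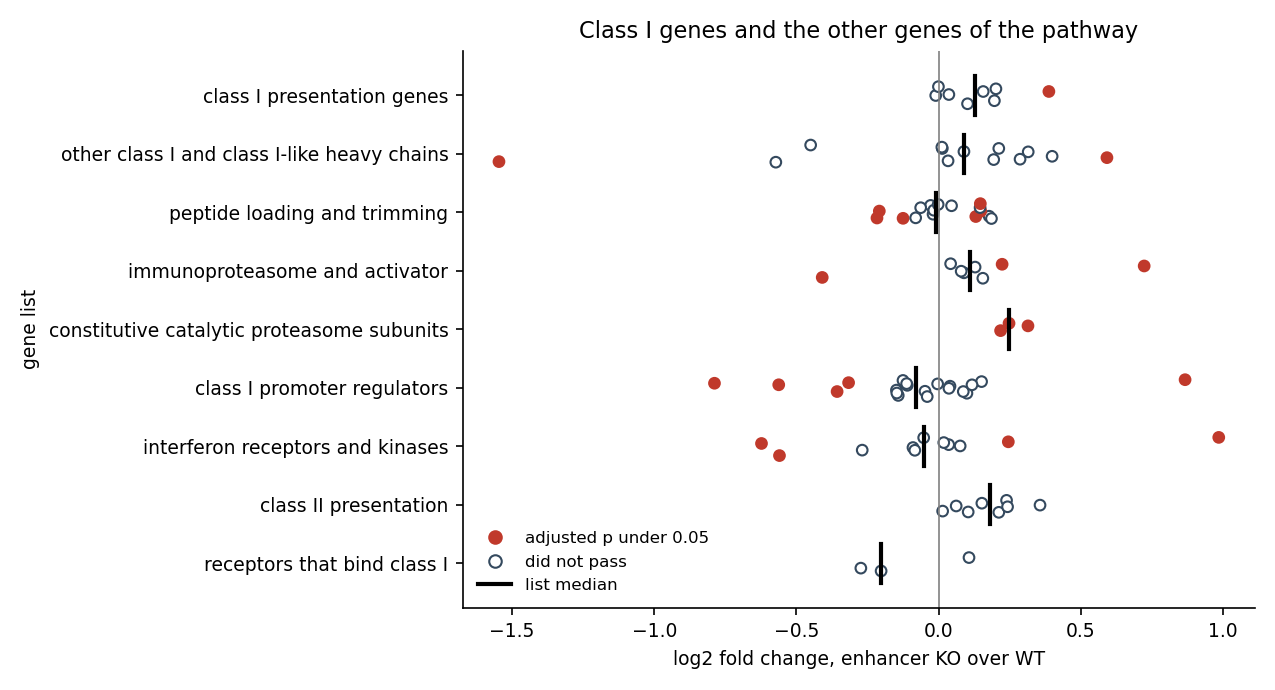
Log2 fold change, enhancer KO over WT, of each gene tested in the class I presentation genes and the related lists, 1 row per list, with a point for each gene, coloured where it passed the adjusted threshold, and a line at the list median. The class I presentation genes spread from -0.01 to 0.39 and the regulators from -0.79 to 0.87.

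Markers of cell types that carry class I were measured beside these genes. Of 15 microglial markers 5 rose and 0 fell, or 33.3%, against 13.4% of all genes higher and 31.3% in either direction. Their summed level was 394 to 476 CPM in enhancer KO and 366 to 378 CPM in WT. The number that rose was 11 when enhancer KO replicate 3 was left out, and 3 when enhancer KO replicate 2 or WT replicate 3 was. Of 14 endothelial markers 9 fell (6 without WT replicate 3 or with library size alone) and 0 rose, against 17.9% of all genes that fell. The summed level of this list was 299 to 353 CPM in enhancer KO and 376 to 422 CPM in WT. Border macrophage and other myeloid markers summed to 17.6 to 27.6 CPM in enhancer KO and 19.6 to 23.9 CPM in WT, and 0 of 8 passed by edgeR's test (1 at an unadjusted p under 0.05, and 0 by DESeq2 and limma-voom). Lymphocyte markers were near 0, with 1.65 to 2.13 CPM in enhancer KO and 1.86 to 2.65 CPM in WT for the whole list, and the T cell genes Cd3d, Cd3e and Cd3g had at most 0.154 CPM (Cd3e) in any library. The part of microglia and endothelium in the levels of the class I presentation genes was not tested.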

How the data were processed

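Trimming by the authors used Trimmomatic and alignment used STAR on mm10, per the submitters' processing notes. Not given in the sources used here are their versions, the annotation, the kit and the read length. Each deposited file holds STAR's whole-number counts for every gene symbol, unscaled by the authors. STAR counts a read only where it aligns to 1 place. Column 4 held over 80% of stranded reads in every library and was used. The 4 rows that name no gene were left out, among them the reads outside exons.

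Genes were filtered by filterByExpr, scaled by TMM and tested by edgeR 4.0.16 in R 4.3.3 (robust quasi-likelihood, two-sided, Benjamini-Hochberg adjustment over 15846 genes, threshold 0.05). The procedure was checked on simulated counts with planted changes larger than those of the class I presentation genes. That check does not cover changes of their size. Alternatives were other scalings, filters, strand columns and thresholds, a replicate block, an Xist covariate, removal of Rn45s or of a trend over gene structure (mgcv 1.9.3), DESeq2 1.42.0, limma-voom (limma 3.58.1), and leaving out libraries. Positions, lengths and transcripts came from GENCODE release vM21 and promoters from RefSeq. Coding sequences were aligned with Biopython 1.88.

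The 8 genes and all lists were chosen with earlier results of these data known. Named were the 8 genes, Atoh7, up to 4 genes per pathway list with the smallest p past the threshold (or its 2 most abundant where none passed) and the 5 nearest profiles. The same rule was set for the interferon response, marker and nuclear RNA lists. Apart from the T cell genes, these are given only as counts, medians or summed levels. Canx, Ganab, Nfyc, Mr1, Cd1d1, Hfe, Fcgrt, Calr, Erap1, Psmb9, Psmb10, Irf1 and the T cell genes were named after their values were seen.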

Additional observations from a re-analysis of the deposited data

Results flagged for a closer look

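H2-K1 had a few reads on the strand opposite to the gene, which the comparisons did not use. They came to 0.118 CPM on average in enhancer KO (0.0532 to 0.156 CPM) and 0.00987 CPM in WT (0 to 0.0296 CPM), and the highest count in any library was 6 reads. They drew attention because every enhancer KO library was above every WT library, the only direction that was looked for. At H2-T23 such reads separated the other way, with 0 to 0.106 CPM in enhancer KO and 0.185 to 0.207 CPM in WT, from at most 7 reads. B2m also separated that way, from at most 1 read per library. None of these differences was tested.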

How the results depend on the processing

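The number of class I presentation genes past the threshold was small under every setting. It was 1 in the main analysis, 2 with library size alone, with no filter on low counts, at a threshold of 0.1 or without Rn45s, and 3 (H2-T23, H2-D1 and Tapbp) with the trend over gene structure removed. It was 0 with at least 1 CPM in 3 libraries, a replicate block, a minimum fold of 1.2, an Xist covariate, DESeq2 or limma-voom. Leaving out 1 library gave 0 to 1, the 1 being H2-T23 without enhancer KO replicate 3 and H2-D1 without WT replicate 3. The number lower was 0 in all 20 alternatives. The log2 fold change of H2-T23 ranged from 0.27 to 0.52 and its adjusted p from 0.00543 to 0.488. H2-D1 passed in 8 of 20 alternatives and Tapbp in 1 (adjusted p = 0.0174), and B2m, H2-K1, Tap1, Tap2 and Nlrc5 passed in none of the 20.

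Same-numbered enhancer KO and WT libraries deviated together with r = 0.053, -0.039 and -0.080, so the numbers were not read as pairs. With the replicate block H2-T23 had an adjusted p of 0.0876. A minimum fold of 1.2 left 83 genes higher (main 2120) and 908 lower (main 2844), of which 2 and 6 in the pathway lists (main 12 and 11). Library size alone moved the median of all genes by 0.06 and left 1689 genes lower. Without WT replicates 2 and 3, 1 of the 20 alternatives, sex and genotype cannot be told apart and the spread comes from enhancer KO libraries alone, which the remaining WT library is taken to share. There 1640 genes were lower and 3 pathway genes higher. Causes were not tested. The 95% intervals were widest for Nlrc5 and Tap1, reaching 0.48 and 0.45 either side of the estimate on the log2 scale.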

Other observations

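At H2-T24, a nonclassical heavy chain gene, 89.8% of the stranded reads came from the strand opposite to the gene, at 9.34 CPM in enhancer KO (9.22 to 9.52 CPM) and 10.06 CPM in WT (9.50 to 10.8 CPM). Those reads entered no comparison, and the ranges of the groups overlapped. H2-M10.2, at 0 on the strand used, had 119 reads over the 6 libraries in the unstranded column.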
